A study of Rattus norvegicus with 20 samples.

Results

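The leukocyte adhesion molecules and integrins described here are 9 genes of rat blood cells, namely Icam1, Icam2, Vcam1, Itgal, Itgam, Itgax, Itgb2, Itga4 and Selplg. A member was represented by every probe set of the array annotated with that symbol and no other. This gave 8 probe sets, 1 for each of 8 genes, of 28826 on the array, of which 15209 had 1 symbol. Itgax had no probe set of its own symbol and was not analysed here. Expression was measured on 1 array per rat in 20 male inbred rats in 4 groups of 5, namely Wistar Kyoto (WKY/NCrl) rats on a cafeteria diet (CAF), Lewis (LEW/Crl) rats on CAF, WKY rats on a standard chow diet (STD) and LEW rats on STD. All rats were 15 weeks old, had been 7 weeks on their diet and were fasted for 9 h before blood was taken. The labels name peripheral blood mononuclear cells, whereas the study's methods describe the part of these cells that adhered to plastic, called monocytes there. The study asked how the 2 strains differed on CAF and what CAF did within each strain.

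Leukocytes leave the blood in steps. P-selectin glycoprotein ligand-1, the product of Selplg, lets them roll on selectins of the vessel wall, after which chemokine signals open the integrins on their surface and these hold on to immunoglobulin-type molecules of the endothelium. The integrin LFA-1, made of Itgal and Itgb2, binds ICAM-1 and ICAM-2, Mac-1, made of Itgam and Itgb2, binds ICAM-1 and complement fragments, and VLA-4, whose alpha chain is Itga4, binds VCAM-1. Monocytes, lymphocytes and platelets themselves carry some of these ligands, and Icam1 and Vcam1 are textbook targets of the transcription factor NF-κB.

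The sequence before the start of 2 of the ligand genes is shown because both hold a match to the NF-κB type motif GGNNNTTCC, searched on both strands. Promoters of 5 of the 9 members (Icam1, Itga4, Itgam, Itgax and Vcam1) were among the RefSeq promoters of the rat assembly GRCr8, and the 250 bases before the start held this motif for Icam1 and Vcam1 only, against 15.4% of all 33469 promoters. The stretches run 5′ to 3′ on the strand of the gene, the match is in capitals, and positions count back from −1, the base before the annotated start. Icam1 lies at chr8:27829595-27829687 on the + strand (positions −250 to −158, which are the bases before every annotated transcript of the gene). Vcam1 lies at chr2:206742784-206742903 on the - strand (positions −120 to −1).
Icam1: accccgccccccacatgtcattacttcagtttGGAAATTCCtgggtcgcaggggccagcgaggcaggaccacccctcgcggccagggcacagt
Vcam1: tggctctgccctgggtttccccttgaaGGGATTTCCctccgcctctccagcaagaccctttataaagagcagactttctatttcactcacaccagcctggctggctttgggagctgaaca
The Icam1 match at −218 to −210 reads as a match on both strands, and that of Vcam1 spans −93 to −85. Further matches lay on the other strand at −149 to −141 of Icam1 and at −246 to −238 of Vcam1. That of Icam1 lies past −158 and so not before every annotated transcript of the gene. The core GAGGAA, bound by the myeloid factor PU.1, was found in the Itgam promoter, at −151 to −146 and on the other strand at −39 to −34, and in 23.3% of all promoters. The Itgam window did not end at the edge of the annotated gene, so these matches may not lie before every transcript. A match describes the letters and not binding, which was not measured.

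All values are log2 probe set levels, so that a difference of 1 is a 2-fold change of signal. Each measured member was read from 1 probe set, and whether the strains differ in sequence under its probes was not tested. Array medians lay between 6.83 and 6.90, and each array correlated on average at 0.994 to 0.997 with the others of its group. On 4 arrays (LEW on CAF replicate 2, LEW on STD replicates 2 and 3 and WKY on STD replicate 1) the heat shock genes stood apart, with centred mean levels of 0.49 to 1.00, against −0.085 at most on the other 16, and results that change without these 4 arrays are given with both values. Among monocyte markers Lyz2 averaged 13.34 and Cd14 averaged 12.71 over the arrays, while Cd163 was low at 5.70. Markers of other cells were also far above the median of all probe sets (6.86), with averages of 12.27 for Cd3e of T cells, 12.19 for Cd79b of B cells, 12.14 for Nkg7 of NK cells and 13.03 for Pf4 of platelets. In such bulk samples, fewer cells of a type and less RNA per cell cannot be told apart. Nothing in the labels says that the rats of a group were handled separately, and p-values measure the spread between these arrays.

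Across the strains, 2 of the 8 measured members differed on CAF, Icam1 being higher and Icam2 lower in WKY rats. On STD the same 2 genes differed in the same directions, and the integrin alpha chains Itgal and Itgam were also higher in WKY rats, which made 4 of 8. Between diets none of the 8 differed within either strain. Called here means an adjusted p under 0.05 by limma with Benjamini-Hochberg adjustment over all probe sets. Over the whole array this rule called 7.58% of probe sets on CAF (4.24% higher and 3.34% lower in WKY rats) and 11.3% on STD (5.88% higher and 5.38% lower), so that calls were common between these strains.

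**Figure D1:**
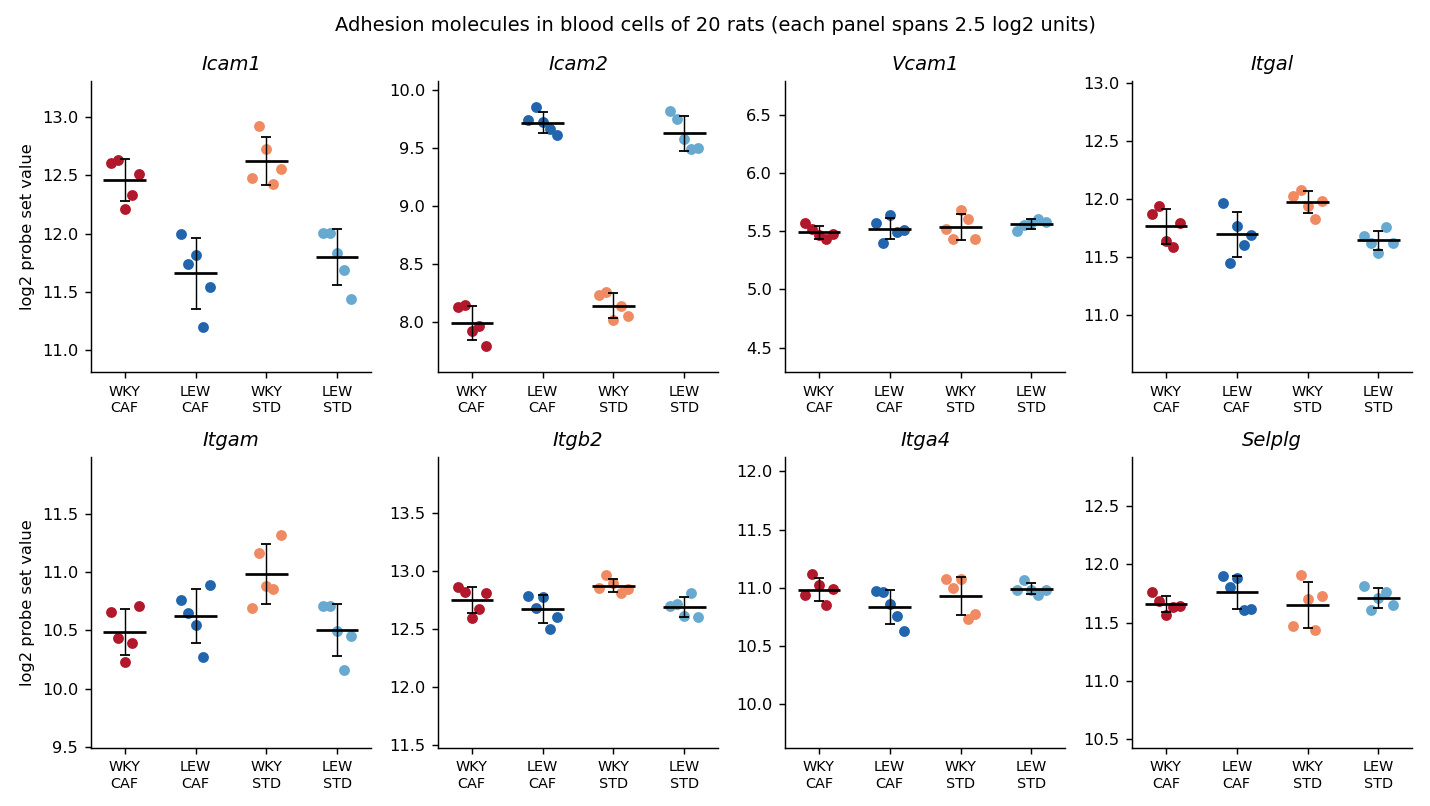
Log2 value of each of the 8 measured members on each array (points), with the mean of the group (line) and its SD (bar), n = 5 rats per group; groups run from WKY on CAF to LEW on STD, and every panel spans the same height. Icam2 was lower and Icam1 higher on all 10 WKY arrays than on all 10 LEW arrays, Itgal separated the strains on STD only, and the other members overlapped.

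Icam2 encodes a constitutive ligand of LFA-1 found on endothelium, platelets, lymphocytes and monocytes. On CAF it was 8.13, 8.15, 7.93, 7.97 and 7.80 in WKY rats, against 9.74, 9.85, 9.72, 9.67 and 9.61 in LEW rats. On STD it was 8.24, 8.26, 8.02, 8.14 and 8.06 in WKY rats, against 9.82, 9.75, 9.58, 9.49 and 9.50 in LEW rats. The highest WKY array (8.26) thus lay below the lowest LEW array (9.49), and the 2 strains were separated by more than the whole range within either. The difference was −1.72 on CAF (SE 0.077, 95% interval −1.88 to −1.56, adjusted p = 5.70e-12), a 3.30-fold lower level, and −1.48 on STD (SE 0.077, −1.64 to −1.32, adjusted p = 6.47e-11), a 2.79-fold lower level. The exact permutation test gave p = 0.00794 on each diet, the smallest that 5 against 5 arrays allow. The group means, lowest first, were 7.99 ± 0.15 in WKY rats on CAF (SD, n = 5 each), 8.14 ± 0.10 in WKY rats on STD, 9.62 ± 0.15 in LEW rats on STD and 9.72 ± 0.089 in LEW rats on CAF, and within each strain the 2 diets overlapped. Icam2 kept its call in all 39 alternative settings on each diet, the differences running from −1.86 to −1.64 on CAF and from −1.70 to −1.37 on STD.

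Only Icam2 varied enough over the 20 arrays (SD 0.83, where 0.5 was asked) to look for genes of like pattern. After each probe set was centred on its own mean, the nearest single-symbol probe sets were those of H2az1, a histone H2A variant, Scand1 and Rab30, a small GTPase of the Golgi. Their mean absolute distance from Icam2 over the 20 arrays was 0.12, 0.13 and 0.20 on the log2 scale. H2az1 averaged 11.28 in WKY rats on CAF, against 12.71 in LEW rats on CAF, and 11.04 in WKY rats on STD, against 12.65 in LEW rats on STD. The 3 genes share with Icam2 a lower level in WKY rats on both diets, which follows from their choice by nearness to Icam2.

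Icam1 encodes the inducible ligand of LFA-1 and Mac-1, and it moved opposite to Icam2. On CAF it was 12.61, 12.63, 12.21, 12.33 and 12.51 in WKY rats, against 12.00, 11.74, 11.81, 11.20 and 11.54 in LEW rats. On STD it was 12.48, 12.92, 12.73, 12.42 and 12.56 in WKY rats, against 12.01, 12.01, 11.84, 11.69 and 11.44 in LEW rats. The strains did not overlap on either diet, although the lowest WKY array on CAF (12.21) and the highest LEW array on CAF (12.00) were close. The difference was 0.80 on CAF (SE 0.14, adjusted p = 6.53e-04, 1.74-fold) and 0.82 on STD (SE 0.14, adjusted p = 3.54e-04, 1.77-fold), with p = 0.00794 in the exact permutation test on each diet. Without the 4 arrays of high heat shock genes it was 0.82 on CAF and 0.94 on STD, called on both.

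Other genes moved with Icam1 across the strains, and their part in its difference was not tested. On CAF, 5 of 15 neutrophil markers were higher and none lower in WKY rats, with list means of 8.76 to 9.62 on WKY arrays, against 8.12 to 9.07 on LEW arrays. On STD, 10 of 15 were higher, with list means of 8.78 to 10.02 on WKY arrays, against 7.84 to 8.38 on LEW arrays, while the granule genes Mpo, Elane and Ltf passed the test on neither diet. NK cell markers were higher for 9 of 11 on CAF and 11 of 11 on STD, and the list means did not overlap between the strains (10.38 to 10.56 in WKY rats against 9.26 to 9.80 in LEW rats on CAF, and 10.40 to 11.04 in WKY rats against 9.32 to 9.80 in LEW rats on STD). Immediate-early genes, which respond within minutes when a cell is stimulated, were higher for 6 of 18 on CAF, and on STD 14 were higher and 1 lower. The list means of the immediate-early genes were 10.81 to 11.06 in WKY rats on CAF, against 10.30 to 10.67 in LEW rats on CAF, and 11.15 to 11.32 in WKY rats on STD, against 10.36 to 11.02 in LEW rats on STD. With the neutrophil, immediate-early or NK list mean as a covariate Icam1 lost its call on both diets, at 0.66, 0.48 and 0.97 on CAF (adjusted p = 0.0504, 0.150 and 0.197) and at 0.59, 0.34 and 1.04 on STD (adjusted p = 0.357, 0.563 and 0.434), and with T cell markers it lost the call on STD only (0.64, adjusted p = 0.109). With the monocyte list mean as a covariate the difference of Icam1 was larger and called on both diets, at 1.30 on CAF (adjusted p = 7.60e-06) and 1.01 on STD (adjusted p = 1.31e-06).

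Vcam1 encodes the ligand of VLA-4, which is mainly a molecule of activated endothelium. Its 20 values lay between 5.40 and 5.68, and only 25.3% of probe sets had a lower mean. The difference between the strains was −0.031 on CAF (95% interval −0.14 to 0.080, adjusted p = 0.843) and −0.026 on STD (−0.14 to 0.085, adjusted p = 0.834). Of the endothelial markers, Cdh5 averaged 5.96, Emcn 5.25 and Tek 5.74 over all arrays, which was below the mean of their list. The list means did not overlap between the strains. They were 6.43 to 6.50 in WKY rats on CAF, against 6.57 to 6.63 in LEW rats on CAF. On STD they were 6.42 to 6.51 in WKY rats, against 6.53 to 6.70 in LEW rats. Of 16 endothelial markers, 1 was higher (Flt1) and 2 were lower (Esam and Tie1) in WKY rats on each diet. Their median difference between the strains was −0.048 on CAF and 0.0096 on STD, against −0.0092 and −0.0026 over all probe sets. On STD the list means were thus lower in WKY rats without a lower median. Esam, which platelets also carry, is given with its differences below.

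The β2 integrins are pairs of an alpha chain with the shared beta chain Itgb2. Itgal, the alpha chain of LFA-1, was 12.03, 12.08, 11.94, 11.83 and 11.99 in WKY rats on STD, against 11.69, 11.62, 11.54, 11.76 and 11.62 in LEW rats on STD. All WKY arrays lay above all LEW arrays there. The difference was 0.33 (SE 0.083, 95% interval 0.15 to 0.50, adjusted p = 0.0129; exact permutation p = 0.00794). On CAF Itgal averaged 11.77 ± 0.15 in WKY rats and 11.70 ± 0.19 in LEW rats (SD, n = 5 each), which overlapped, and the difference was 0.071 (−0.10 to 0.25, adjusted p = 0.751). Without the 4 arrays of high heat shock genes the call on STD was lost (0.27, adjusted p = 0.0849). It was also lost with neutrophil, immediate-early, T cell or NK cell markers as a covariate, where the difference was 0.44, 0.32, 0.38 and 0.55 (adjusted p = 0.195, 0.369, 0.132 and 0.551). The strains did not overlap in these list means on STD, so that score and strain cannot be told apart there. Whether the strain difference itself depended on diet is given by the interaction. It was −0.26 (95% interval −0.50 to −0.010, adjusted p = 0.830), which does not pass after adjustment.

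Itgam, the CD11b chain of Mac-1, is carried by monocytes, neutrophils and NK cells. On STD it was 10.69, 11.17, 10.89, 10.86 and 11.32 in WKY rats, against 10.71, 10.71, 10.49, 10.16 and 10.46 in LEW rats. Replicate 1 of the WKY rats fell among the LEW values, and the other 4 lay above them. The difference was 0.48 (SE 0.13, 95% interval 0.20 to 0.76, adjusted p = 0.0225; exact permutation p = 0.0238). This call rested on few arrays, since it was lost without WKY replicate 2 (0.43, adjusted p = 0.0628), WKY replicate 5 (0.40, adjusted p = 0.0751) or LEW replicate 4 (0.39, adjusted p = 0.0663). It was also lost with the neutrophil list mean as a covariate, where the difference was −0.074 (adjusted p = 0.956). With the immediate-early, platelet and T cell lists the difference was smaller and not called (0.14, 0.25 and 0.30; adjusted p = 0.879, 0.390 and 0.557), while with the erythroid and NK cell lists it stayed nearer its size without being called (0.43 and 0.40; adjusted p = 0.0645 and 0.895). With monocyte markers as a covariate it was 0.59 and called (adjusted p = 0.00412). Without the 4 arrays of high heat shock genes, WKY replicate 1 among them, it was 0.62 and called (adjusted p = 0.0222). On CAF the strains overlapped, Itgam averaging 10.48 ± 0.20 in WKY rats and 10.62 ± 0.23 in LEW rats (SD, n = 5 each), a difference of −0.14 (−0.42 to 0.14, adjusted p = 0.678).

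Itgb2, the beta chain of both receptors, missed the threshold on both diets. On STD it was 12.85, 12.96, 12.89, 12.81 and 12.85 in WKY rats, against 12.70, 12.71, 12.62, 12.81 and 12.60 in LEW rats. Only LEW replicate 4 reached the lowest WKY array. The difference was 0.19 (SE 0.062, adjusted p = 0.0601; exact permutation p = 0.0159), and it passed in 8 of 39 alternative settings, among them without LEW replicate 4 and with monocyte markers as a covariate (0.27, adjusted p = 4.70e-04). On CAF the difference was 0.083 (95% interval −0.047 to 0.21, adjusted p = 0.554), and with monocyte markers as a covariate it was 0.31 (adjusted p = 0.00509). Monocyte markers had 1 probe set higher and 6 lower of 19 in WKY rats on CAF and 2 higher and 6 lower on STD, with list means of 10.30 to 10.73 in WKY rats on CAF, against 10.78 to 11.04 in LEW rats on CAF, and of 10.62 to 10.94 in WKY rats on STD, against 10.84 to 11.07 in LEW rats on STD.

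Itga4, the alpha chain of VLA-4 that is common on lymphocytes and monocytes, averaged 10.98 ± 0.10 in WKY rats and 10.84 ± 0.14 in LEW rats on CAF, and 10.93 ± 0.16 in WKY rats and 10.99 ± 0.047 in LEW rats on STD (SD, n = 5 each). The difference was 0.15 on CAF (95% interval −0.010 to 0.31, adjusted p = 0.312) and −0.058 on STD (−0.22 to 0.10, adjusted p = 0.720). Selplg, the rolling ligand, averaged 11.66 ± 0.072 in WKY rats and 11.76 ± 0.14 in LEW rats on CAF, and 11.65 ± 0.20 in WKY rats and 11.71 ± 0.084 in LEW rats on STD. Its difference was −0.10 on CAF (−0.27 to 0.066, adjusted p = 0.579) and −0.060 on STD (−0.23 to 0.11, adjusted p = 0.732). Both genes overlapped between the strains on both diets.

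Non-overlap of the 5 WKY and the 5 LEW arrays was seen for 2 of 8 members on CAF (Icam1 and Icam2), against 7.80% of all probe sets, and for 3 of 8 on STD (with Itgal), against 8.46%. Between diets no member separated the groups, against 2.07% of all probe sets in WKY rats and 0.989% in LEW rats.

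**Figure D2:**
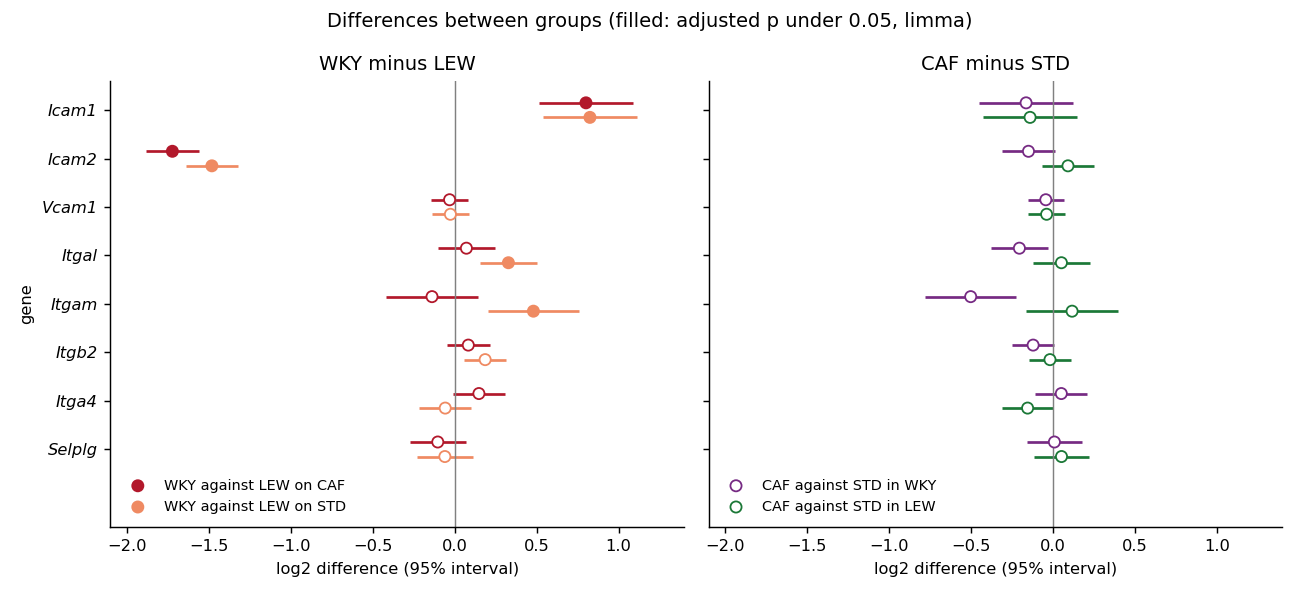
Log2 differences of the 8 members with 95% intervals, WKY minus LEW on each diet (left) and CAF minus STD in each strain (right); filled points have an adjusted p under 0.05 by limma. Icam2 lies far below 0 and Icam1 above 0 on both diets, Itgal and Itgam are filled on STD only, and no point is filled in the comparison of diets.

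The cafeteria diet gave no call at an adjusted p under 0.05 by limma in any member or elsewhere on the array (0% of probe sets in WKY rats, 0% in LEW rats and 0% for the diet by strain interaction). An unadjusted P under 0.05 was found for 2539 probe sets in WKY rats (8.81%), 1575 in LEW rats (5.46%) and 1714 for the interaction (5.95%). Of the 8 members, 2 had such a P in WKY rats, none in LEW rats and 3 for the interaction. At an unadjusted P under 0.01 there was 1 member of 8 in WKY rats, against 2.64% of all probe sets, none in LEW rats, against 1.07%, and 1 for the interaction, against 1.30%. That member was Itgam in both cases. In WKY rats it was 10.66, 10.44, 10.23, 10.39 and 10.71 on CAF, against the STD values above, of which only replicate 1 (10.69) lay below the highest CAF array. The difference was −0.50 (SE 0.13, 95% interval −0.78 to −0.22, adjusted p = 0.243; exact permutation p = 0.0159). In LEW rats it was 10.76, 10.65, 10.54, 10.27 and 10.89 on CAF, against 10.71, 10.71, 10.49, 10.16 and 10.46 on STD, a difference of 0.12 (−0.16 to 0.40, adjusted p = 0.972). The interaction was −0.62 (SE 0.19, adjusted p = 0.707), which does not pass, and the WKY arrays on STD enter this comparison as well as that of the strains on STD.

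Among the other members the diet differences were smaller. Itgal differed by −0.20 between CAF and STD in WKY rats (95% interval −0.38 to −0.030, adjusted p = 0.475; exact permutation p = 0.0397) and by 0.052 in LEW rats (−0.12 to 0.23, adjusted p = 0.978). Icam1 differed by −0.16 in WKY rats (−0.45 to 0.13, adjusted p = 0.785) and by −0.14 in LEW rats (−0.43 to 0.15, adjusted p = 0.967). Icam2 differed by −0.15 in WKY rats (−0.31 to 0.011, adjusted p = 0.603) and by 0.092 in LEW rats (−0.068 to 0.25, adjusted p = 0.964). Its interaction was −0.24 (95% interval −0.47 to −0.014, adjusted p = 0.822). The largest of the 8 in LEW rats was Itga4, at −0.15 (−0.31 to 0.0034, adjusted p = 0.913; exact permutation p = 0.0476). Over the 8 members the 95% intervals in LEW rats stayed within −0.43 and 0.40.

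Rats of the same group also differed from each other, which was looked at as each array's deviation from its group mean. Itgb2 deviated together with its partner Itgal over the 20 arrays (Pearson's r = 0.70, permutation p = 0.00517, adjusted p = 0.0103 over 2 relations; Spearman's rho = 0.77, permutation p = 0.00106). Leaving out the 2 arrays farthest from the median of Itgb2 left r at 0.70. It was 0.84 over the 10 WKY arrays (permutation p = 0.0135) and 0.61 over the 10 LEW arrays (permutation p = 0.117). For its other partner Itgam the value was r = 0.32 (permutation p = 0.193; rho = 0.22, permutation p = 0.390), and 0.016 without the 2 farthest arrays.

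**Figure D3:**
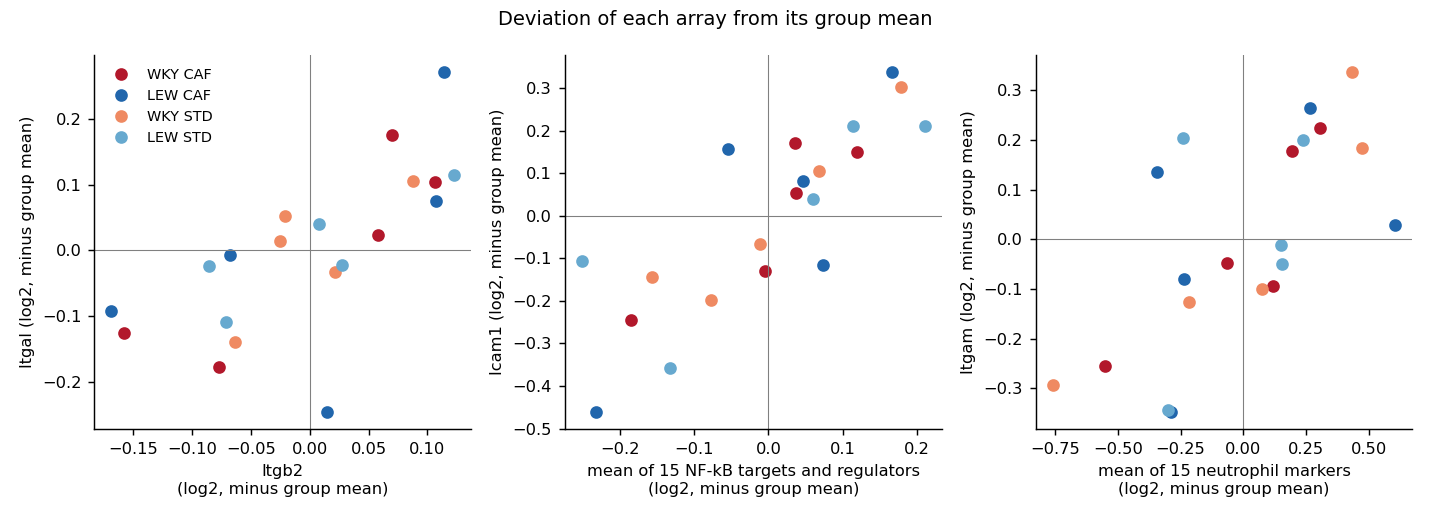
Deviation of each of the 20 arrays from its group mean on the log2 scale, coloured by group: Itgal against Itgb2 (r = 0.70), Icam1 against the mean of 15 NF-κB targets and regulators (r = 0.83), and Itgam against the mean of 15 neutrophil markers (r = 0.67). The points rise together in each panel, most tightly for Icam1.

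A further 4 relations were chosen after the values had been seen. Icam1 deviated with the mean of 15 NF-κB targets and regulators at r = 0.83 (permutation p = 1.30e-04, adjusted p = 5.20e-04; rho = 0.79, permutation p = 3.30e-04), at 0.91 within WKY rats and 0.79 within LEW rats, and at 0.83 without the 2 farthest arrays. With the mean of the immediate-early genes r was 0.54 (permutation p = 0.0312, adjusted p = 0.0416; rho = 0.40, permutation p = 0.105), and 0.41 without the 2 farthest arrays (permutation p = 0.162), where it did not pass. Itgam deviated with the mean of 15 neutrophil markers at r = 0.67 (permutation p = 0.00381, adjusted p = 0.00762; rho = 0.70, permutation p = 0.00313), and at 0.57 without the 2 farthest arrays. It was 0.90 over the 10 WKY arrays (permutation p = 0.00141) and 0.40 over the 10 LEW arrays (permutation p = 0.288). With the mean of the monocyte markers Itgam gave r = 0.48 (permutation p = 0.0464, adjusted p = 0.0464; rho = 0.37, permutation p = 0.130), and 0.37 without the 2 farthest arrays (permutation p = 0.143), where it no longer held.

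The other genes of the adhesion steps were read from 5 lists, and in each the number called is to be set against the shares of the array given above. Of 14 selectins and genes of selectin ligand synthesis, 2 were higher and 3 lower in WKY rats on CAF and 1 was higher and 2 lower on STD, with list medians of −0.00065 and 0.0098. B4galt1, a galactosyltransferase, was lower by both comparisons (−0.79 on CAF, adjusted p = 4.63e-08, and −0.79 on STD, adjusted p = 4.00e-08), as was Podxl, a sialomucin (−0.40, adjusted p = 0.0130, and −0.48, adjusted p = 0.00250). Tpst2, which sulphates tyrosines of selectin ligands, was lower on CAF (−0.24, adjusted p = 0.00188), and Glg1, an E-selectin ligand first described in mouse cells, was higher on CAF (0.24, adjusted p = 0.00425); neither passed on STD (−0.13, adjusted p = 0.0906, and −0.012, adjusted p = 0.930). Selp and Sele, the selectins of platelets and endothelium, differed by 0.055 and −0.012 on CAF and passed on neither diet.

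Of 16 other integrin subunits, 2 were higher and none lower on each diet, and the list median was −0.0044 on CAF and 0.021 on STD. Itgad, an alpha chain that pairs with Itgb2 and whose gene lies next to Itgax and close to Itgam on chromosome 1, averaged 8.67 ± 0.14 in WKY rats and 8.05 ± 0.10 in LEW rats on CAF (0.62, adjusted p = 0.00105), and 8.95 ± 0.21 in WKY rats and 8.03 ± 0.26 in LEW rats on STD (0.92, adjusted p = 9.71e-06; SD, n = 5 each). RefSeq lists Itgax as an older name of Itgad, so the 2 genes are easily confused. Itga1, the alpha chain of a collagen receptor, was higher by 0.68 on CAF (adjusted p = 0.0176) and 1.09 on STD (adjusted p = 1.91e-04). Itgb1, the beta chain of VLA-4, differed by −0.080 on CAF (adjusted p = 0.656) and by −0.14 on STD (adjusted p = 0.279).

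**Figure D4:**
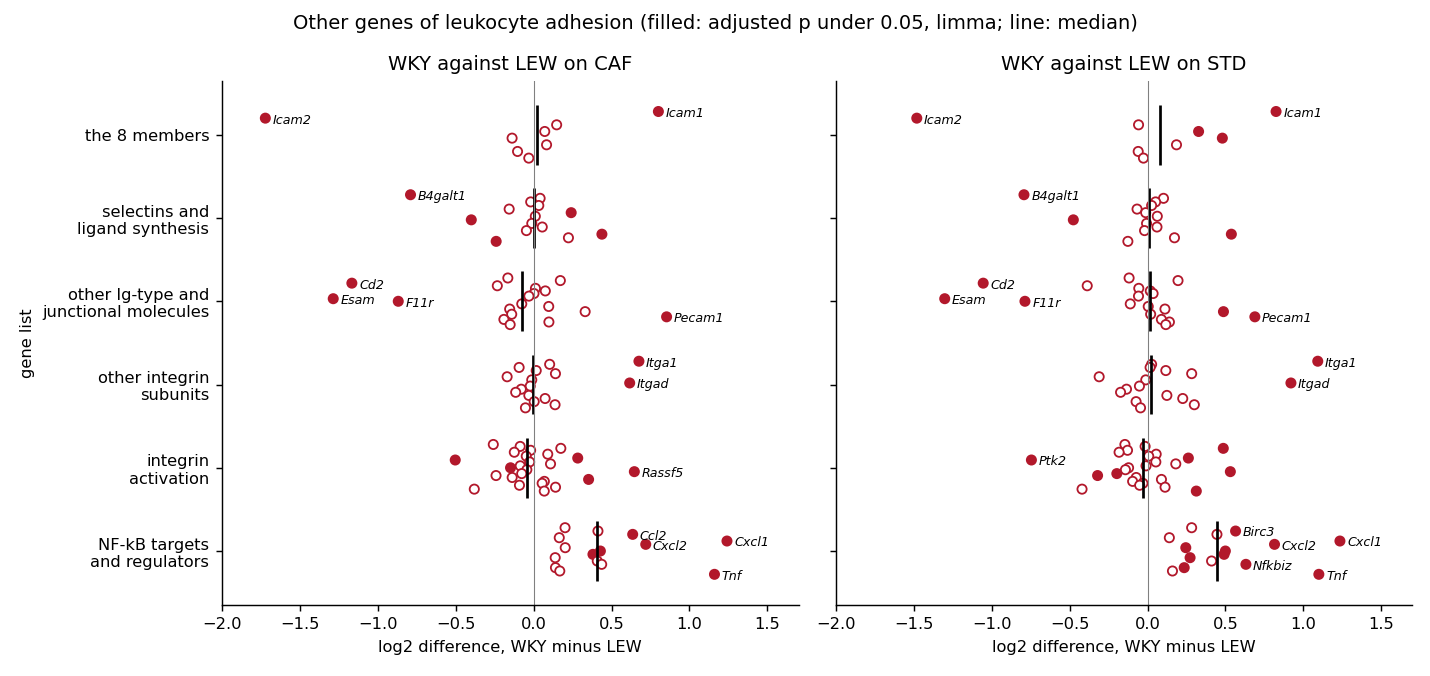
Log2 differences, WKY minus LEW, of the 8 members and of the genes of 5 adhesion-related lists on CAF (left) and STD (right), 1 point per probe set, with the median of each list as a line; filled points have an adjusted p under 0.05 by limma. Icam2 lies lowest of all points shown in both panels, and all NF-κB genes lie above 0.

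Among 19 other immunoglobulin-type and junctional adhesion molecules, 1 was higher and 3 lower in WKY rats on CAF and 2 were higher and 3 lower on STD (list medians −0.076 and 0.017). Pecam1, a molecule of platelets, leukocytes and endothelial junctions through which leukocytes pass, averaged 10.72 ± 0.039 in WKY rats and 9.87 ± 0.082 in LEW rats on CAF (0.85, adjusted p = 2.33e-10), and was higher by 0.69 on STD (adjusted p = 5.43e-09). The lower genes were Cd2, a T and NK cell adhesion molecule (−1.17, adjusted p = 2.23e-06, and −1.05, adjusted p = 6.73e-06), Esam (−1.29, adjusted p = 2.74e-05, and −1.30, adjusted p = 2.08e-05) and F11r, the junctional molecule JAM-A (−0.87, adjusted p = 0.00197, and −0.79, adjusted p = 0.00354). Platelets carry Esam and F11r as well as Icam2, Esam is also one of the endothelial markers and Cd2 one of the T cell markers. Of 8 platelet markers, 2 were lower on CAF and 4 on STD, with list means of 12.07 to 12.44 in WKY rats on CAF, against 12.33 to 12.65 in LEW rats on CAF, and of 12.12 to 12.24 in WKY rats on STD, against 12.28 to 12.96 in LEW rats on STD. With the platelet list mean as a covariate Icam2 kept its call on both diets. On STD these list means did not overlap between the strains, so that score and strain cannot be told apart there. The part of platelets in the difference of Icam2 was not tested.

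Of 25 genes that act inside the cell in integrin activation, 3 were higher and 2 lower in WKY rats on CAF and 4 were higher and 3 lower on STD (list medians −0.044 and −0.030). Rassf5, the RAPL protein that links Rap1 to the LFA-1 alpha chain, was higher (0.65, adjusted p = 4.14e-06, and 0.53, adjusted p = 3.98e-05), as was the phospholipase gene Plcg2 (0.28, adjusted p = 0.0149, and 0.26, adjusted p = 0.0186). The kinase gene Src was higher on CAF (0.35, adjusted p = 0.00947) and passed no test on STD (0.089, adjusted p = 0.583). Ptk2, the focal adhesion kinase, was lower (−0.50, adjusted p = 1.16e-04, and −0.75, adjusted p = 8.06e-07). Tln1 and Fermt3, talin and kindlin-3, which bind the integrin tails, differed by −0.091 and −0.087 on CAF and passed on neither diet.

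The 15 NF-κB targets and regulators, which did not include Icam1, had 6 higher and none lower on CAF and 10 higher and none lower on STD, with list medians of 0.41 and 0.45, against −0.0092 and −0.0026 over all probe sets. Tnf, the cytokine that induces ICAM-1 on many cells, was higher by 1.16 on CAF (adjusted p = 1.22e-04) and 1.10 on STD (adjusted p = 1.74e-04). The subunit Nfkb2 was higher by 0.43 (adjusted p = 0.00387) and 0.50 (adjusted p = 6.85e-04), and the neutrophil chemokine Cxcl1 by 1.24 (adjusted p = 0.0206) and 1.23 (adjusted p = 0.0160). The monocyte chemokine Ccl2 was higher by 0.64 on CAF (adjusted p = 0.0132) and differed by 0.45 on STD (adjusted p = 0.0738). Cd83, Bcl3, Nfkbie and Sod2 passed on neither diet. In the comparisons of diets and for the interaction no gene of these 5 lists was called.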

How the data were processed

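RNA from blood mononuclear cells of 20 rats, adherent to plastic by the study's methods, was hybridised by the authors to Affymetrix Rat Gene 1.0 ST arrays, 1 per rat. The deposited values are on a log2 scale. The study's methods name robust multi-array averaging, whereas the submitters' processing notes name MAS5 without a version; the range and near-equal array medians were used as found, with no renormalisation or filter. GEO's platform annotation gave 1 symbol to 15209 of the 28826 probe sets, several to 306 and none here to 13311.

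A limma model (version 3.58.1, R 4.3.3) with 1 mean per group was fitted to all probe sets, with moderated variances (eBayes; degrees of freedom 16 residual, 3.67 prior), and p-values of each of 5 comparisons were adjusted over the whole array by Benjamini-Hochberg. The median SE of a difference was 0.069, and the number of arrays limits the precision. Single values were also tested by two-sided exact permutation over 5 against 5 arrays, and relations by 100000 permutations within groups (two-sided, SciPy 1.17.1). List scores are means of probe sets centred over the arrays. The fit was tested on simulated data. Alternatives were leaving out each array, other eBayes settings, array weights, rescaling, filters and marker scores as covariates. All members, the 3 probe sets of most like pattern and, from each pathway list, the 2 to 4 genes of smallest adjusted p between the strains on CAF were named; other list genes were named for their role after their values had been seen. Members and lists were chosen with earlier results of these data known. The numbers of replicates did not pair the arrays.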

Additional observations from a re-analysis of the deposited data

How the results depend on the processing

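The calls of Icam1 and Icam2 on both diets held under every setting that left out 1 array, and 2 members were called on CAF and 3 to 5 on STD in those fits. The number of members called on CAF was 1, in place of 2, with the neutrophil, immediate-early or NK cell list as a covariate, and on STD it was 1, in place of 4, with the neutrophil, immediate-early, T cell or NK cell list. Icam2 was the member left each time. Among the lists used as covariates, the strains did not overlap in the list means of NK cell markers and immediate-early genes on either diet. Nor did they overlap in those of neutrophil, T cell and platelet markers on STD, or of monocyte and erythroid markers on CAF. Score and strain cannot be told apart in these cases. Itgam on STD turned to −0.074 with the neutrophil list. At an unadjusted P under 0.01, 1 member was counted for diet in WKY rats and 1 for the interaction, in place of 0. The relation of Itgb2 with Itgal no longer passed over LEW arrays alone (r = 0.61). A direction was read only for values called in at least 1 of the 2 fits compared. Over all single values, 1522 kept their side of the threshold, 27 lost a call, 9 gained one and 1 reversed; the cause of these changes was not tested.

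Same-numbered arrays of 2 groups correlated in their deviations at −0.18 to 0.43, not all above 0.1, so the replicate numbers were not taken as pairs. With the replicate block 2 members were called on CAF, 4 on STD and 0 between diets, as without it. Covariates for T, B and NK cells and platelets, and leaving out the 4 arrays of high heat shock genes (2 members called on CAF, 3 on STD), were chosen after seeing the data. The relation of Itgb2 with Itgax was not run. The filter at the median level removed Vcam1. Vcam1 lay in the lowest part of the array's range, where the array limits what can be seen.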
